A study of Gallus gallus with 24 samples.

Results

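Periocular mesenchyme is the loose tissue that surrounds the developing eye, and 9 genes often used to mark it were followed here in cultured chick eye tissue: PRRX1, TCF21, FOXC1, FOXC2, PDGFRA, PDGFRB, LUM, DCN and OGN. The genes were chosen by name, by the gene symbols of the table, with earlier results of these data known. All 9 had a row among the 24356 gene rows, all 9 passed the filter on low values (mean normalized count of at least 10), and they are 9 of the 15001 genes tested. The explants were pieces of retinal pigment epithelium (RPE), the pigmented layer behind the retina, taken from chicken embryos (specific pathogen free) at embryonic day 4. They were cultured with 20 mM dichloroacetate (DCA) and 10 ng/ml FGF2 together, with 10 ng/ml FGF2 alone, with 20 mM DCA alone, or in maintenance medium as the control. RNA was sequenced after 24 h or 48 h in culture, which gave 8 groups of 3 biological replicates, and each replicate was a pool of 3 explants. An explant is a piece of tissue and not a sorted cell type, so an RNA of the mesenchyme could come from cells that stayed attached to the epithelium.

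The mesenchyme around the eye comes from the neural crest and, in part, from head mesoderm. It gives rise to cells of the cornea and sclera, to connective tissue and to the pericytes of the ocular vessels. FOXC1 and FOXC2 are transcription factors needed for its development in the front of the eye, and PRRX1 and TCF21 are transcription factors of mesenchyme in many organs. PDGFRA and PDGFRB are receptor tyrosine kinases for platelet-derived growth factors, and LUM, DCN and OGN encode small leucine-rich proteoglycans that bind collagen fibrils. FGF2 is a growth factor that can turn embryonic chick RPE into neural retina, and DCA inhibits the pyruvate dehydrogenase kinases.

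Values are the normalized read counts that the authors deposited. They are not divided by gene length, so levels are compared between groups and not between genes. Sums over genes and ratios of a pair of genes are likewise compared between groups. Library totals were 32.82 to 72.72 M reads with a median of 37.5 M. The third FGF2 replicates at 24 h and at 48 h were deepest, and the other 22 libraries held at most 47.1 M. Markers of pigment epithelium were present in every group: the 12 listed genes summed to between 134957 and 246785 normalized counts per library at 24 h. At 48 h they summed to 45192 to 50478 in DCA+FGF2, 58089.9 to 85884 in FGF2, 86651 to 173470.0 in DCA and 239416 to 255472 in control explants. Tests are limma-trend on log2 of the normalized count plus 1, with Benjamini-Hochberg adjustment over all 15001 genes and a call at an adjusted p under 0.05. A value after ± is an SE for a log2 fold change and an SD for a level (n = 3). The labels call the samples biological replicates, and the intervals and tests here cover the spread between such pools. In these bulk samples fewer cells of a type and less RNA per cell cannot be told apart.

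FGF2 lowered most of the mesenchyme markers at 24 h and all of them, by more, at 48 h. Beside FGF2, DCA left most of them at higher levels than FGF2 alone did. OGN followed another course: it was lowest with DCA. Against control explants, FGF2 lowered 7 of the 9 genes at 24 h, where 14.3% of all genes tested were called lower and 15.5% higher. At 48 h it lowered 9 of 9, against 27.7% of all genes called lower and 26.9% called higher. The median log2 fold change of the 9 genes was -1.07 at 24 h and -2.77 at 48 h, beside -0.01 and -0.02 over all genes tested. The summed level of the 9 genes in a library was 3316 to 3890 normalized counts in FGF2 explants at 48 h, against 24441 to 29809 in control explants. Such a sum, here and below, follows the genes with the most counts. In control explants at 48 h most counts of the sum were those of DCN and LUM, with means of 15189 and 5267.

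**Figure D1:**
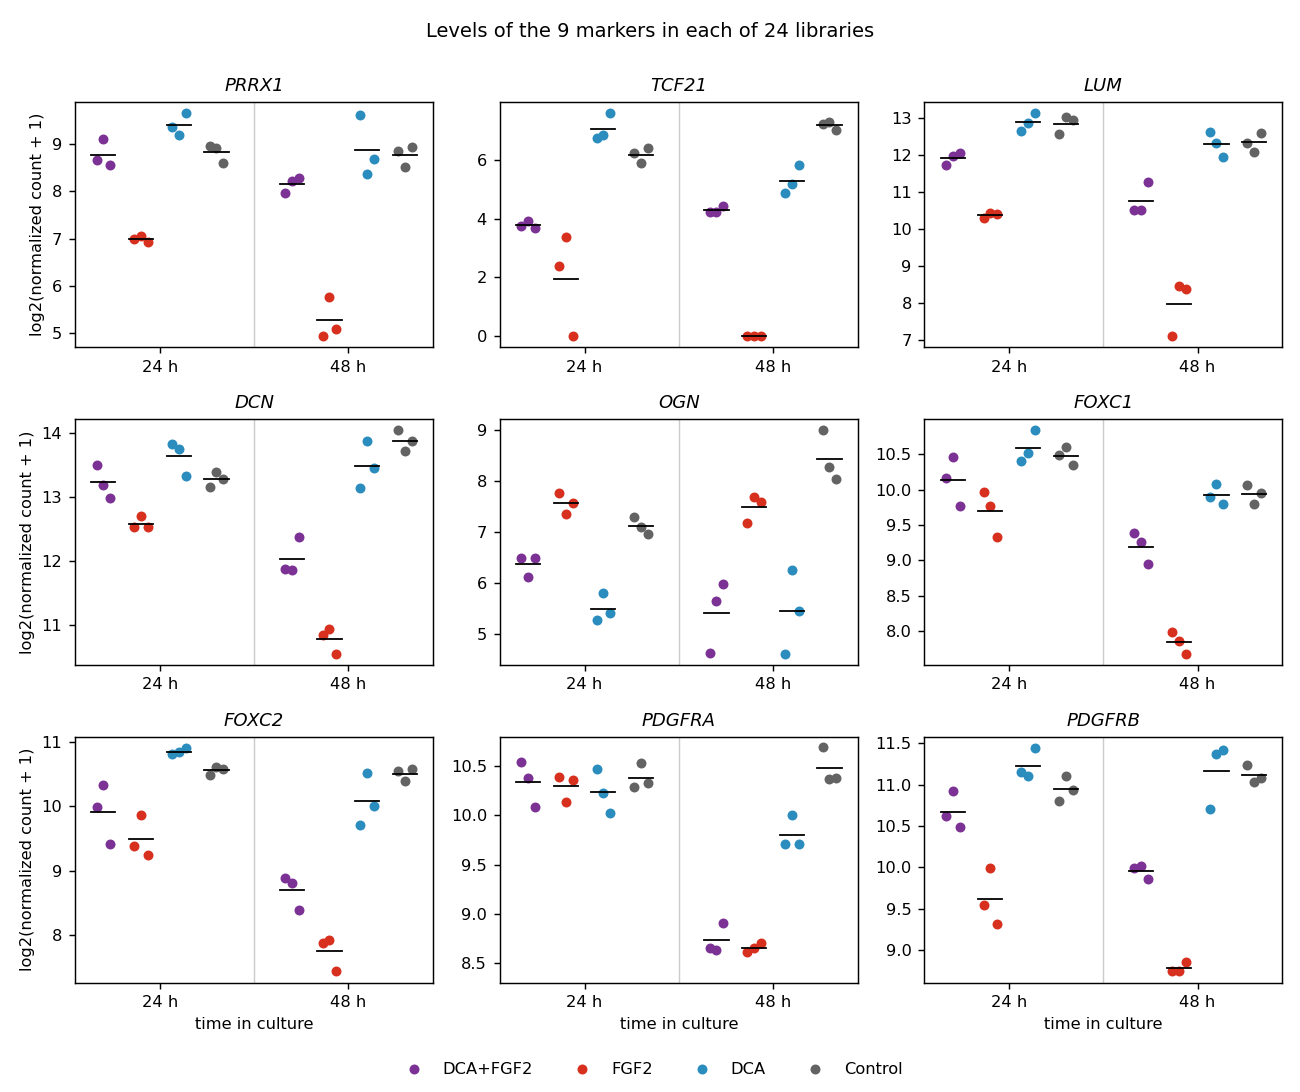
Normalized read counts of the 9 marker genes in each library by treatment and time, as log2 of the count plus 1, 1 panel per gene; each point is 1 library and each short line the mean of the 3 log2 values. By mean, FGF2 explants at 48 h are lowest for every gene but OGN, whose lowest values are in explants given DCA. For PDGFRA the libraries of FGF2 and DCA+FGF2 explants at 48 h overlap, and for TCF21 replicate 3 of FGF2 at 24 h is also at 0.

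PRRX1 encodes a homeodomain transcription factor of limb and craniofacial mesenchyme. At 24 h, PRRX1 had 403, 554 and 375 normalized counts in DCA+FGF2 explants, 127, 132 and 121 in FGF2 explants, 655, 589 and 813 in DCA explants and 501, 485 and 388 in control explants. At 48 h, PRRX1 had 249, 296 and 312 in DCA+FGF2 explants, 29.6, 53.5 and 33.0 in FGF2 explants, 781, 328 and 409 in DCA explants and 465, 368 and 491 in control explants. The FGF2 libraries lay below every other library at the same time, and the ranges of DCA and control explants overlapped at 48 h. Its mean in FGF2 explants was 27.7% of control at 24 h and 8.8% at 48 h. PRRX1 fell with FGF2 at 24 h (log2 fold change -1.84 ± 0.26, limma adjusted p = 9.4e-06) and at 48 h (-3.52 ± 0.26, limma adjusted p = 2.3e-10). In the order of group means, the 5 highest groups, from DCA at 24 h (685 ± 115) down to control at 48 h (441 ± 65.0), overlapped from each to the next. Below them DCA+FGF2 at 48 h, FGF2 at 24 h and FGF2 at 48 h were each separate.

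TCF21 encodes a basic helix-loop-helix factor of visceral and cardiac mesenchyme, and it was at or near 0 reads with FGF2. At 24 h, TCF21 had 12.6, 14.0 and 11.8 normalized counts in DCA+FGF2 explants, 4.27, 9.42 and 0 in FGF2 explants, 107, 113 and 195 in DCA explants and 73.6, 59.1 and 84.9 in control explants. At 48 h, TCF21 had 17.6, 17.6 and 20.5 in DCA+FGF2 explants, 0, 0 and 0 in FGF2 explants, 28.0, 34.9 and 56.1 in DCA explants and 151, 157 and 130.02 in control explants. No read was recorded in any of the 3 FGF2 libraries at 48 h, and 12 reads in all at 24 h. With a floor of 3 reads per library, which is a mean of 2.60 normalized counts and covers counting error only, TCF21 at 48 h was at least 56.1-fold lower in FGF2 than in control explants. The limma adjusted p was 9.3e-10 at 48 h and 6.3e-06 at 24 h, where the log2 fold change was -4.26 ± 0.58. Other markers of mesenchyme were still counted in those 48 h FGF2 libraries, for example DCN with 1845, 1972 and 1508.

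FOXC1 and FOXC2 are paralogous forkhead factors, and both fell with FGF2 at each time. At 24 h, FOXC1 had 1142, 1409 and 872 normalized counts in DCA+FGF2 explants, 1002, 874 and 644 in FGF2 explants, 1349, 1464 and 1826 in DCA explants and 1433, 1549 and 1299 in control explants. At 48 h, FOXC1 had 668, 608 and 490.1 in DCA+FGF2 explants, 253, 230.3 and 204 in FGF2 explants, 949, 1085 and 892 in DCA explants and 1066, 891 and 985 in control explants. All FGF2 libraries lay under all control libraries at both times, at 58.9% of the control mean at 24 h and 23.4% at 48 h. The log2 fold change of FOXC1 was -0.78 ± 0.17 at 24 h (limma adjusted p = 0.0012) and -2.10 ± 0.17 at 48 h (1.3e-09). At 24 h, FOXC2 had 1013, 1285 and 679.6 in DCA+FGF2 explants, 664, 928 and 604 in FGF2 explants, 1798, 1831 and 1915 in DCA explants and 1434, 1572 and 1526 in control explants. At 48 h, FOXC2 had 472, 446 and 334 in DCA+FGF2 explants, 233, 242 and 171 in FGF2 explants, 838, 1470.1 and 1021 in DCA explants and 1493, 1350.1 and 1528 in control explants. FOXC2 too was separate between FGF2 and control explants, and FGF2 explants held 48.4% of the control mean at 24 h and 14.8% at 48 h. Its log2 fold change was -1.07 ± 0.21 at 24 h (limma adjusted p = 0.00048) and -2.77 ± 0.21 at 48 h (4.8e-10).

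PDGFRA, the receptor that marks many embryonic fibroblasts, was late to change. At 24 h, PDGFRA had 1491, 1333 and 1088 normalized counts in DCA+FGF2 explants, 1343, 1122 and 1314 in FGF2 explants, 1419.9, 1195 and 1042 in DCA explants and 1249.7, 1484 and 1282 in control explants. At 48 h, PDGFRA had 401, 395 and 477 in DCA+FGF2 explants, 389, 400.4 and 414 in FGF2 explants, 837, 1023 and 835 in DCA explants and 1656, 1327 and 1334 in control explants. The 4 groups overlapped at 24 h. At 48 h control explants were highest, DCA explants were separate below them, and the DCA+FGF2 and FGF2 explants were lowest and overlapped each other. The FGF2 difference at 24 h was -0.09 ± 0.13 on the log2 scale (95% interval -0.36 to 0.19, limma adjusted p = 0.68), and at 48 h PDGFRA fell by 1.83 ± 0.13 (limma adjusted p = 2.1e-10) to 27.9% of control.

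PDGFRB, the receptor of pericytes and other perivascular cells, was already lower at 24 h. At 24 h, PDGFRB had 1571, 1936 and 1433 normalized counts in DCA+FGF2 explants, 747, 1018 and 633 in FGF2 explants, 2269.7, 2193 and 2781 in DCA explants and 1789, 2201 and 1956 in control explants. At 48 h, PDGFRB had 1019, 1037 and 927 in DCA+FGF2 explants, 426, 429 and 461 in FGF2 explants, 1676, 2649 and 2746 in DCA explants and 2405, 2086 and 2166 in control explants. FGF2 explants were separate below each of the other groups at both times. PDGFRB stood at 40.3% of control at 24 h (log2 fold change -1.33 ± 0.17, limma adjusted p = 2.7e-06) and at 19.8% at 48 h (-2.33 ± 0.17, 1.9e-10). Within a library, PDGFRB divided by PDGFRA was 0.648 ± 0.227 in FGF2 explants at 24 h and 1.48 ± 0.0471 in control explants, and at 48 h 1.09 ± 0.0201 in FGF2 explants and 1.55 ± 0.0876 in control explants. The ranges were separate at both times, and the exact two-sided permutation p was 0.1, the smallest that 3 libraries against 3 allow.

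LUM encodes lumican, which the corneal stroma needs for its transparency. At 24 h, LUM had 3444, 4015 and 4271 normalized counts in DCA+FGF2 explants, 1274, 1392 and 1359.7 in FGF2 explants, 6505, 7554 and 9082 in DCA explants and 6049, 8396 and 7960.4 in control explants. At 48 h, LUM had 1463, 1463 and 2481 in DCA+FGF2 explants, 138, 356 and 333 in FGF2 explants, 6299, 5186 and 3959.8 in DCA explants and 5189.9, 4369.6 and 6243 in control explants. At each time DCA and control explants overlapped, DCA+FGF2 explants were separate below both, and FGF2 explants were separate below those. LUM in FGF2 explants was 17.97% of control at 24 h (log2 fold change -2.46 ± 0.27, limma adjusted p = 4e-07) and 5.2% at 48 h (-4.35 ± 0.27, 1.8e-11).

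DCN encodes decorin, which binds collagen and growth factors of the TGF-beta family, and it lies directly beside LUM in the chicken gene order of RefSeq (GRCg7b). At 24 h, DCN had 11633, 9373 and 8163 normalized counts in DCA+FGF2 explants, 5937, 6659 and 5926 in FGF2 explants, 14534, 13823 and 10306 in DCA explants and 9194, 10815 and 10003 in control explants. At 48 h, DCN had 3769, 3730.3 and 5309 in DCA+FGF2 explants, 1845, 1972 and 1508 in FGF2 explants, 9059, 15024 and 11217 in DCA explants and 16874, 13582 and 15112 in control explants. The FGF2 explants were separate below the control explants at both times. DCN in FGF2 explants was 61.7% of control at 24 h (log2 fold change -0.70 ± 0.17, limma adjusted p = 0.0035) and 11.7% at 48 h (-3.10 ± 0.17, 3.8e-12). LUM divided by DCN within a library was 0.218 ± 0.0106 in FGF2 explants at 24 h and 0.743 ± 0.0746 in control explants. At 48 h the ratio was 0.159 ± 0.0755 in FGF2 explants and 0.348 ± 0.0573 in control explants. Both differences had separate ranges and an exact two-sided permutation p of 0.1, again the smallest possible.

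OGN encodes osteoglycin, also called mimecan, of the same protein family, and in the RefSeq order it lies in a row with OMD, BGN and ECM2. At 24 h, OGN had 89.2, 69.0 and 88.8 normalized counts in DCA+FGF2 explants, 217, 164 and 188 in FGF2 explants, 37.9, 55.2 and 41.4 in DCA explants and 157, 136 and 125 in control explants. At 48 h, OGN had 23.8, 49.1 and 62.6 in DCA+FGF2 explants, 144, 206 and 192 in FGF2 explants, 23.5, 75.4 and 43.1 in DCA explants and 510.4, 310.4 and 262 in control explants. Every DCA and DCA+FGF2 library lay under every FGF2 and control library of its time. With FGF2 alone the log2 difference was 0.44 ± 0.36 at 24 h (95% interval -0.31 to 1.19, limma adjusted p = 0.4), while at 48 h OGN fell by 0.95 ± 0.36 (limma adjusted p = 0.031) to 50.03% of control. That 48 h call was lost without control replicate 1 (-0.67), FGF2 replicate 1 (-0.80) or FGF2 replicate 3 (-1.004), and the adjusted p ran between 0.0149 and 0.167 over the 24 fits that each left out 1 library. It was also lost without both of the deepest libraries (adjusted p = 0.0588). Control explants at 48 h held the highest mean of OGN and were separate from the next. In order of means, FGF2 at 24 h, FGF2 at 48 h and control at 24 h overlapped from each to the next, and so did the 4 groups given DCA. At 24 h, though, every FGF2 library lay above every control library, with OGN means of 190 and 139, a difference that was not called.

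With DCA alone OGN was lower at both times, and TCF21 and PDGFRA were lower at 48 h. At 24 h 1 of 9 was lower and 0 higher, where 9.48% of all genes were called lower and 10.6% higher. At 48 h 3 of 9 were lower and 0 higher, against 17.1% and 16.9% of all genes. OGN fell at 24 h (log2 fold change -1.62 ± 0.36, limma adjusted p = 0.003), to 32.2% of control, and at 48 h (-2.995 ± 0.36, 2.6e-06), to 13.1%. TCF21 fell at 48 h to 27.2% of control (-1.91 ± 0.58, limma adjusted p = 0.014), a call that was lost without DCA replicate 1 at 48 h (-1.69, with adjusted p between 0.000817 and 0.0607 over the fits that leave out 1 library). PDGFRA fell at 48 h to 62.4% of control (-0.68 ± 0.13, limma adjusted p = 0.0005). For LUM the 48 h difference was -0.04 with a 95% interval of -0.60 to 0.51, and for PDGFRB it was 0.06 with an interval of -0.29 to 0.40. DCN and FOXC2 were called lower at 48 h when DCA replicate 2 was left out (-0.59 and -0.65), which made 5 of 9 lower. DCN was also called with scaling by library total (adjusted p = 0.0467), and leaving out DCA replicate 1 left 2 of 9 lower. At 24 h the DCA explants had separate and higher ranges than control explants for PRRX1, TCF21 and FOXC2, at 149.7%, 190.9% and 122.3% of the control mean, and none of these passed the test (limma adjusted p = 0.12, 0.31 and 0.37). When the library of DCA replicate 1 at 48 h was left out, PRRX1 passed at 24 h (0.58, with adjusted p between 0.0496 and 0.326 over such fits). In the fit of only the groups compared, 2 of 9 were higher at 24 h (PRRX1 and FOXC2).

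DCA+FGF2 explants had higher levels of most markers than explants given FGF2 alone. At 24 h 5 of 9 were higher (PRRX1, TCF21, PDGFRB, LUM and DCN) and 1 lower (OGN), where 18.1% of all genes were called higher and 17.8% lower. At 48 h 7 of 9 were higher (those 5, FOXC1 and FOXC2) and again OGN was lower, where 25.4% of all genes were higher and 27.4% lower. The median log2 fold change of the 9 genes was 0.64 at 24 h and 1.25 at 48 h, beside -0.02 and -0.04 over all genes. PRRX1 reached 350.4% of its FGF2 mean at 24 h (1.78 ± 0.26, limma adjusted p = 1.7e-05) and 738.4% at 48 h (2.89 ± 0.26, 6e-09). LUM reached 291.4% at 24 h (1.54 ± 0.27, limma adjusted p = 0.00014) and 653.3% at 48 h (2.77 ± 0.27, 2.1e-08). The ranges of both genes were separate at each time.

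TCF21 at 48 h was at least 7.13-fold higher in DCA+FGF2 than in FGF2 explants with the floor of 3 reads per library (limma adjusted p = 2.1e-06), and at 24 h the log2 fold change was 1.86 ± 0.58 (limma adjusted p = 0.016). That 24 h call of TCF21 was lost without FGF2 replicate 3 (0.89, with adjusted p between 0.0013 and 0.125 over the fits that leave out 1 library). It was also lost in edgeR's quasi-likelihood test (adjusted p = 0.0619), in the fit of only the groups compared (0.181) and without both of the deepest libraries (0.122). PDGFRB was higher at 24 h (1.06 ± 0.17, limma adjusted p = 5.1e-05) and at 48 h (1.18 ± 0.17, 4.7e-06), and DCN at 24 h (0.64 ± 0.17, limma adjusted p = 0.0059) and at 48 h (1.25 ± 0.17, 2.6e-06).

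FOXC1 and FOXC2 were higher with DCA+FGF2 than with FGF2 at 48 h, at 257.1% (1.35 ± 0.17, limma adjusted p = 9.7e-07) and 193.6% (0.95 ± 0.21, 0.0007). At 24 h the ranges of both genes overlapped and neither passed the test (limma adjusted p = 0.051 and 0.13). FOXC1 passed at 24 h in DESeq2 (adjusted p = 0.0341), in edgeR (0.0468), with a pseudocount of 5 (0.0499) and with a mean filter of 50 (0.0471). It also passed without DCA replicate 3, FGF2 replicate 1 or DCA+FGF2 replicate 3 at 24 h or DCA+FGF2 replicate 3 at 48 h. The log2 fold changes without 1 library were 0.26 to 0.62, with adjusted p between 0.00987 and 0.279. FOXC2 passed without FGF2 replicate 2 (0.60) or DCA+FGF2 replicate 3 (0.66) of 24 h, with adjusted p between 0.0184 and 0.525 over such fits. OGN in DCA+FGF2 explants was 43.4% of its FGF2 mean at 24 h (-1.19 ± 0.36, limma adjusted p = 0.014) and 25.0% at 48 h (-2.06 ± 0.36, 5.8e-05). Its 24 h call was lost without FGF2 replicate 1 (-1.09) or DCA+FGF2 replicate 2 (-1.07), with adjusted p between 0.00564 and 0.0555 over such fits, so 0 of 9 were then lower.

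PDGFRA showed no called difference between DCA+FGF2 and FGF2 explants: it was at 103.5% at 24 h (log2 difference 0.04, 95% interval -0.23 to 0.32, limma adjusted p = 0.84) and at 105.8% at 48 h (0.08, interval -0.20 to 0.35, limma adjusted p = 0.66). PDGFRB divided by PDGFRA within a library was 1.27 ± 0.203 in DCA+FGF2 explants at 24 h and 0.648 ± 0.227 in FGF2 explants. At 48 h it was 2.37 ± 0.370 in DCA+FGF2 explants and 1.09 ± 0.0201 in FGF2 explants. The ranges were separate at both times (exact two-sided permutation p = 0.1, the smallest possible). LUM divided by DCN was 0.416 ± 0.114 in DCA+FGF2 and 0.218 ± 0.0106 in FGF2 explants at 24 h, and 0.416 ± 0.0446 in DCA+FGF2 and 0.159 ± 0.0755 in FGF2 explants at 48 h, also separate. FOXC1 divided by FOXC2 was 1.42 ± 0.0522 in DCA+FGF2, 1.08 ± 0.119 in FGF2 and 0.915 ± 0.200 in DCA explants at 48 h. In control explants it was 0.673 ± 0.0367 at 48 h and 0.945 ± 0.0819 at 24 h. At 48 h FOXC2 thus lay relatively lower with each treatment than in control explants. At 24 h the ranges of this ratio in FGF2 and control explants overlapped. Of 24 such ratio comparisons, 17 had separate ranges, and the smallest adjusted p over the 24 was 0.141.

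**Figure D2:**
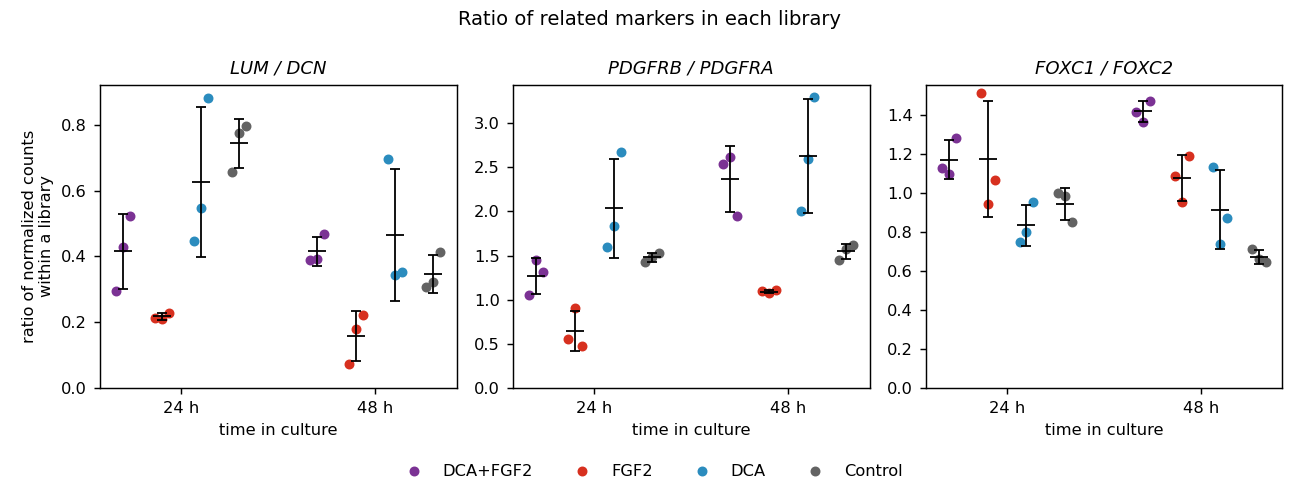
Ratio of normalized counts within each library for 3 pairs of related genes (LUM to DCN, PDGFRB to PDGFRA, FOXC1 to FOXC2) by treatment and time, on a linear axis from 0; points are libraries, and short lines with error bars the group mean and SD (n = 3). PDGFRB to PDGFRA is higher in DCA+FGF2 than in FGF2 explants at both times, with separate ranges.

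In DCA+FGF2 explants at 48 h the markers were below control levels, also OGN and PDGFRA, which were not higher than with FGF2 alone. All 9 were lower there than in control explants (27.4% of all genes were called lower and 27.1% higher), and at 24 h 3 of 9 were lower (21.4% of all genes lower, 20.8% higher). At 48 h PRRX1 stood at 64.7% of control, FOXC1 at 60.1%, PDGFRB at 44.8%, LUM at 34.2%, PDGFRA at 29.5%, FOXC2 at 28.6%, DCN at 28.1%, TCF21 at 12.7% and OGN at 12.5%. All 9 ranges were separate. The call of PRRX1 (-0.62 ± 0.26, limma adjusted p = 0.045) was lost without any of 11 libraries: all 3 of DCA+FGF2 at 48 h, control replicates 1 and 3 at 48 h, all 3 of FGF2 at 24 h, and DCA replicate 1, control replicate 2 and DCA+FGF2 replicate 1 at 24 h. Over all 24 such fits its log2 fold change lay between -0.75 and -0.53 and its adjusted p between 0.0145 and 0.14. It was also lost without a filter on low values (0.0642) and without both of the deepest libraries (0.0549). At 24 h the lower genes were TCF21 (-2.40 ± 0.58, limma adjusted p = 0.0019), LUM (-0.92 ± 0.27, 0.0081) and FOXC2 (-0.65 ± 0.21, 0.017). FOXC2 lost its call without DCA+FGF2 replicate 3 (-0.40), and FOXC1 gained one without DCA+FGF2 replicate 2 (-0.51). OGN was called in the fit of only the groups compared (-0.75, adjusted p = 0.0423). Over the fits that leave out 1 library, the adjusted p was 0.0038 to 0.133 for FOXC2 and 0.0287 to 0.483 for FOXC1.

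Set against DCA alone, DCA+FGF2 explants had 4 of 9 markers lower at 24 h, where 12.0% of all genes were called lower and 13.0% higher. At 48 h it was 7 of 9, against 16.5% lower and 17.4% higher. The 4 genes at 24 h were TCF21 (-3.29 ± 0.58, limma adjusted p = 0.0002), LUM (-0.97 ± 0.27, 0.0099), FOXC2 (-0.94 ± 0.21, 0.0021) and PDGFRB (-0.56 ± 0.17, 0.018). Leaving out DCA replicate 3, DCA+FGF2 replicate 1 or DCA+FGF2 replicate 3 of 24 h ended the call of PDGFRB (adjusted p 0.00443 to 0.0913 over such fits). DCN (-0.41, limma adjusted p = 0.091) was called at 24 h without DCA replicate 3 or DCA+FGF2 replicate 1 of 24 h (0.0304 to 0.315), and PRRX1 (-0.63, 0.077) without DCA+FGF2 replicate 2 of 24 h or DCA replicate 1 of 48 h (0.0265 to 0.23). FOXC1 (-0.45, limma adjusted p = 0.057) was called without DCA replicate 1, FGF2 replicates 1 or 3 or DCA+FGF2 replicate 2 of 24 h (0.0152 to 0.304). It was also called by DESeq2 (0.0466), with scaling by library total (0.0348) and without both of the deepest libraries (0.041). OGN (0.87, limma adjusted p = 0.086) was called higher without DCA replicate 1 of 48 h (0.0477 to 0.218). At 48 h DCN (-1.45 ± 0.17, limma adjusted p = 1.3e-06) and PDGFRA (-1.08 ± 0.13, 2.3e-06) had the smallest adjusted p of the 9. PRRX1 (-0.73 ± 0.26, limma adjusted p = 0.033) lost its call without DCA replicate 1 (-0.36) or DCA+FGF2 replicate 1 (-0.63) or 2 (-0.76) of 48 h, with adjusted p between 0.00744 and 0.25 over such fits, and in the fit of only the groups compared (0.13). For OGN the 48 h difference was -0.02 with a 95% interval of -0.77 to 0.73, and for TCF21 it was -1.002 with an interval of -2.20 to 0.20 (limma adjusted p = 0.97 and 0.2). TCF21 was called there by DESeq2 (adjusted p = 0.0468).

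Whether the DCA effect differed with and without FGF2 was tested as an interaction, the DCA effect beside FGF2 minus the DCA effect without it. At 48 h it was positive and called for 8 of 9 genes, where 15.1% of all genes were called more positive and 15.0% more negative. The estimates were 6.19 ± 0.81 for TCF21 (limma adjusted p = 9.1e-06), 2.82 ± 0.38 for LUM (1.1e-05), 2.79 ± 0.36 for PRRX1 (7.9e-06) and 1.65 ± 0.24 for DCN (3e-05). For FOXC2, FOXC1, PDGFRB and PDGFRA they were 1.38, 1.36, 1.12 and 0.75 (limma adjusted p = 0.0014, 0.00023, 0.0012 and 0.0043). The TCF21 estimate holds the FGF2 group at 0 reads, so its size depends on the pseudocount. For PDGFRA the positive sign came with a fall under DCA alone and no called difference beside FGF2. TCF21 also fell under DCA alone at 48 h (-1.91), and this fall is part of its 6.19. DCN (-0.39) and FOXC2 (-0.43) had negative differences under DCA alone that were not called. The interaction of OGN was 0.93 ± 0.51 (limma adjusted p = 0.19). It was called without DCA replicate 2 (1.337) or DCA+FGF2 replicate 1 (1.33) of 48 h, with adjusted p between 0.0436 and 0.468 over such fits.

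At 24 h 1 of 9 interactions was called, LUM at 1.49 ± 0.38 (limma adjusted p = 0.034), where 1.68% of all genes were called more positive and 1.24% more negative. The LUM call was lost without any of 9 libraries of 24 h (control replicates 2 and 3, DCA replicates 1 and 2, all 3 of FGF2, and DCA+FGF2 replicates 2 and 3), with estimates of 1.37 to 1.63 and adjusted p between 0.00474 and 0.0878 over the 24 such fits. It was also lost without a filter (0.0563) and without both of the deepest libraries (0.0514). PRRX1 at 1.20 (limma adjusted p = 0.074) and PDGFRB at 0.78 (0.078) were both called without DCA replicate 1 of 48 h, which made 3 of 9, and PDGFRB also without FGF2 replicate 2 of 24 h (0.97). Over such fits the adjusted p was 0.0213 to 0.191 for PRRX1 and 0.0254 to 0.205 for PDGFRB. DESeq2 called both (0.0221 and 0.0356), and the fit of only the groups compared called PRRX1 (0.0226).

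**Figure D3:**
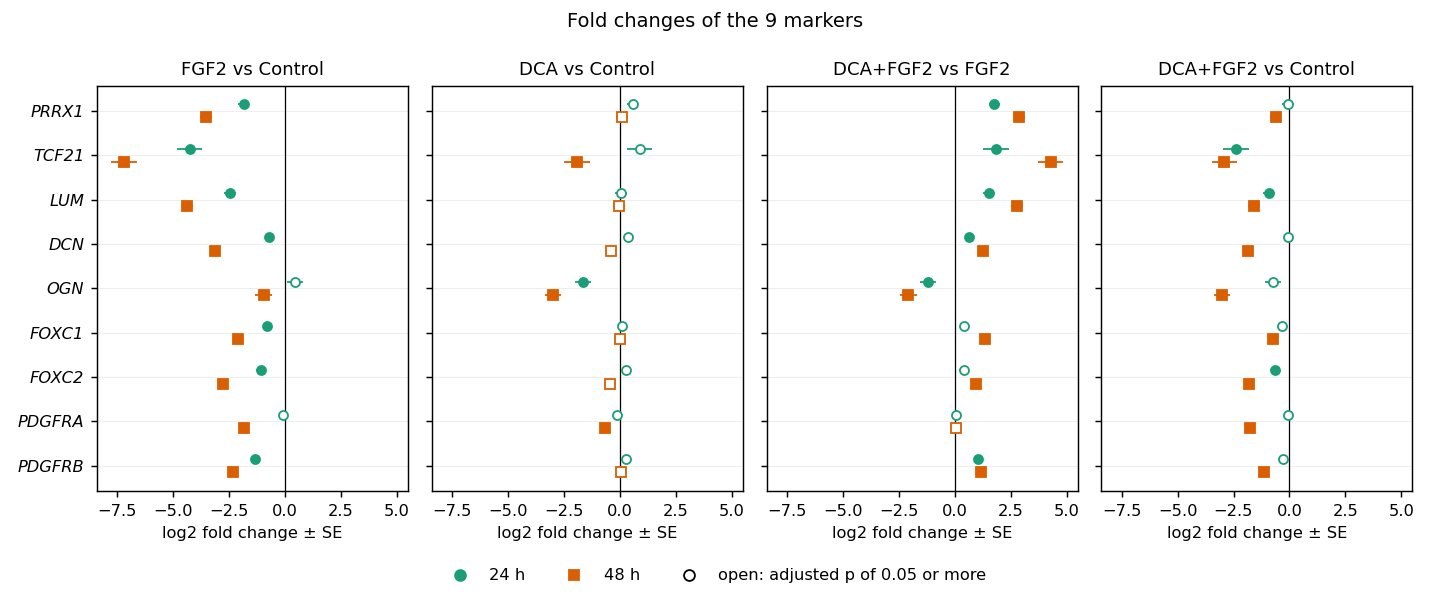
Log2 fold changes of the 9 marker genes with their SE from the limma fit, by comparison and time; open symbols are not called, and the vertical line marks no difference. FGF2 against control lies left of the line for all 9 genes at 48 h, and DCA+FGF2 against FGF2 lies right of it for all but OGN; the sizes for TCF21 against FGF2 at 48 h depend on the pseudocount.

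The FGF2 effect at 48 h was more negative than the effect at 24 h for all 9 genes, where 15.4% of all genes were called more negative and 14.7% more positive. The difference was -2.40 ± 0.24 for DCN (limma adjusted p = 3.9e-07) and -1.74 ± 0.19 for PDGFRA (7.9e-07). It was -1.89 for LUM, -1.70 for FOXC2, -1.68 for PRRX1, -1.31 for FOXC1 and -1.002 for PDGFRB, with limma adjusted p of 0.00069, 0.0002, 0.0014, 0.00033 and 0.0029. TCF21 differed by -2.93 ± 0.81 (limma adjusted p = 0.009), a size that depends on the pseudocount since its FGF2 libraries at 48 h were at 0. OGN differed by -1.39 ± 0.51 (limma adjusted p = 0.044). Between the times OGN rose by 1.32 in control explants, and in FGF2 explants its difference was -0.08. The OGN call was lost without any of 12 libraries: all 6 FGF2 libraries, all 3 control libraries of 24 h, control replicates 1 and 2 of 48 h, and DCA replicate 3 of 48 h. The adjusted p ran between 0.022 and 0.131 over such fits, and the call was also lost without a filter (0.0701) and without both of the deepest libraries (0.0951).

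Between 24 h and 48 h in control medium, 2 of 9 markers were higher and 1 lower, where 9.69% of all genes were called higher and 7.30% lower. OGN was higher (1.32 ± 0.36, limma adjusted p = 0.015), DCN was higher (0.60 ± 0.17, 0.018) and FOXC1 was lower (-0.54 ± 0.17, 0.033). Each call depended on single libraries. DCN lost its call without control replicate 1 of either time (adjusted p 0.00913 to 0.0872 over such fits). OGN lost it without control replicate 3 of 24 h or replicate 1 of 48 h (0.00573 to 0.0964), and FOXC1 without control replicates 1 or 2 of 24 h or 2 or 3 of 48 h (0.0196 to 0.114). TCF21 was called higher (1.01, adjusted p = 0.0273) in the fit of only the groups compared. In FGF2 explants 8 of 9 were lower at 48 h than at 24 h, OGN being the exception (-0.08 ± 0.36, limma adjusted p = 0.89), against 18.2% of all genes called lower and 19.3% higher. LUM (-2.40 ± 0.27), FOXC1 (-1.85 ± 0.17), DCN (-1.80 ± 0.17) and PDGFRA (-1.64 ± 0.13) were among them, with limma adjusted p of at most 4.9e-07. TCF21 had 0 reads at 48 h and 12 at 24 h, so the size of its fitted change depends on the pseudocount. With the floor of 3 reads per library at 48 h the ratio of means was 1.75-fold. FGF2 replicate 3 of 24 h was also at 0, so the ranges overlapped and this ratio is no lower bound. The TCF21 call (limma adjusted p = 0.011) was lost without FGF2 replicate 2 of 24 h (adjusted p between 3.65e-05 and 0.103 over such fits), with a pseudocount of 5 (0.071) and in the fit of only the groups compared (0.295).

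In DCA+FGF2 explants 7 of 9 markers were lower at 48 h than at 24 h, where 15.8% of all genes were lower and 17.8% higher. PDGFRA (-1.61 ± 0.13, limma adjusted p = 2.8e-08) had the smallest adjusted p. PRRX1 (-0.62 ± 0.26, limma adjusted p = 0.068) and TCF21 (0.50 ± 0.58, 0.53) were not called. PRRX1 was called without DCA replicates 1 or 2 or FGF2 replicate 2 of 48 h (adjusted p 0.0239 to 0.248 over such fits), by DESeq2 (0.0411) and in the fit of only the groups compared (0.0491). OGN (-0.95 ± 0.36, limma adjusted p = 0.048) was called in only 5 of the 24 fits that each left out 1 library, those without control replicates 1 or 3, DCA replicates 1 or 2 or DCA+FGF2 replicate 3 of 48 h (adjusted p 0.0217 to 0.269). OGN also lost its call under 5 of the 11 other alternatives. In DCA explants 4 of 9 were lower at 48 h (11.8% of all genes lower, 13.6% higher): TCF21 (-1.78 ± 0.58), FOXC2 (-0.77 ± 0.21), FOXC1 (-0.66 ± 0.17) and PDGFRA (-0.44 ± 0.13), with limma adjusted p of 0.026, 0.0095, 0.0069 and 0.019. TCF21 lost its call without DCA replicate 3 of 24 h or DCA replicates 1 or 2 of 48 h (adjusted p 0.00189 to 0.106 over such fits) and with a pseudocount of 0.5 (0.0651). PDGFRA lost it without DCA replicate 1 of 24 h or DCA replicates 1 or 3 of 48 h (0.0086 to 0.121) and in the fit of only the groups compared (0.0835). FOXC2 lost it without DCA replicate 1 of 48 h (-0.59, adjusted p 0.00185 to 0.0635), and PRRX1 gained one there (-0.89, 0.00793 to 0.516), so 2 of 9 were then lower. LUM gained one without FGF2 replicate 1 of 48 h (-0.60, 0.0273 to 0.354).

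The 9 genes were also compared over all 24 libraries on the log2 scale, as a description: the libraries share their groups, so r follows the group differences. Among the 28 pairs without OGN, Pearson r ran between 0.541 (TCF21 with PDGFRA) and 0.955 (PRRX1 with LUM), with a median of 0.874. OGN with the 8 others gave r between -0.401 and 0.277, with a median of -0.193.

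**Figure D4:**
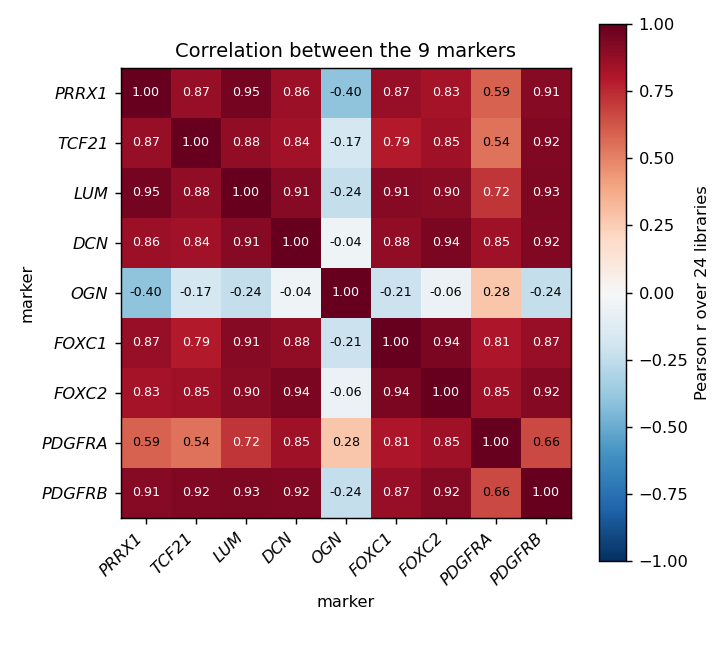
Pearson r of log2 (normalized count plus 1) between the 9 marker genes over 24 libraries, shown as a coloured grid with the value in each cell. Every pair among the 8 genes other than OGN is at 0.541 or above, and OGN lies between -0.401 and 0.277 with each of them.

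For each marker the 3 genes most alike in pattern were taken by the highest Pearson r of log2 values over the 24 libraries, among about 10100 named genes with a mean of at least 100 normalized counts. For PRRX1 they included FN1, which encodes fibronectin (r = 0.975), and COL12A1 of collagen XII (0.974). For LUM they were KERA, which encodes keratocan of the corneal stroma and is its direct neighbour in the RefSeq order (0.976), GCHFR (0.974) and CDH11, a cadherin of mesenchyme (0.973). DCN was nearest to SNAI1, a zinc finger factor of mesenchymal transitions (0.973), PHACTR2 (0.973) and ITGB8, an integrin subunit (0.968). FOXC2 was nearest to FGR (0.978) and PHACTR2 (0.975). FOXC1 was nearest to DACT1 (0.960), TNFRSF19 (0.957) and AKR1D1 (0.957), and FOXC2 ranked 13 for it with 0.945.

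PDGFRB was nearest to ALX4, a homeodomain factor of craniofacial mesenchyme (r = 0.987), FGFR3, an FGF receptor (0.969), and JPH1 (0.961). PDGFRA was nearest to VEGFD, a growth factor for lymphatic vessels (0.969), ST3GAL6 (0.968) and NT5DC3 (0.949). TCF21 was nearest to GJA5, a connexin of arteries and heart (0.950), SOCS2 (0.947) and CXCL12, a chemokine (0.936). OGN was nearest to P2RX5 (0.891), MDH1, the cytosolic malate dehydrogenase (0.885), and SPTAN1 (0.884). For the mean standardized log2 value of the 9 genes the 6 nearest were PHACTR2 (0.980), FGR (0.971), GCHFR (0.971), SNAI1 (0.970), CALCRL (0.969) and LMX1B (0.969). Over the 8 group means in place of the 24 libraries, 10 of the 27 nearest genes were again among the nearest 3.

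Other transcription factors of mesenchyme moved with the markers. Of 19 tested, FGF2 lowered 10 and raised 2 at 24 h, and lowered 16 and raised 0 at 48 h (median log2 fold change -2.53). Of all genes tested, FGF2 lowered 14.3% and raised 15.5% at 24 h, and lowered 27.7% and raised 26.9% at 48 h. LMX1B, a LIM homeodomain factor of the front of the eye, fell by 2.95 at 48 h (limma adjusted p = 1.7e-11), and PRRX2, a paralog of PRRX1, fell by 2.86 (3.5e-12). DCA+FGF2 explants had 11 of the 19 higher and 1 lower than FGF2 explants at 48 h (median 1.05). Of all genes, 25.4% were higher there and 27.4% lower. PRRX2 rose by 2.48 there (limma adjusted p = 4e-11) and LMX1B by 1.57 (2.5e-07).

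Matrix genes of fibroblasts fell with FGF2 as well: of 16 tested, FGF2 lowered 8 and raised 0 at 24 h, and lowered 14 and raised 2 at 48 h (median -1.52). The shares of all genes were 14.3% lower and 15.5% higher at 24 h, and 27.7% and 26.9% at 48 h. COL3A1, a fibrillar collagen, fell by 3.23 at 48 h (limma adjusted p = 1.8e-11), COL12A1 by 2.02 (1.5e-12) and FBLN1, fibulin-1, by 1.85 (2.7e-11). DCA+FGF2 explants had 14 of the 16 higher and 2 lower than FGF2 explants at 48 h, with COL12A1 at 1.90 (limma adjusted p = 4.9e-12), COL3A1 at 1.53 (1.3e-06) and FBLN1 at 0.63 (9.9e-05). Of all genes, 25.4% were called higher in that comparison and 27.4% lower. In other comparisons the matrix list and the 9 markers differed in their counts. With DCA alone at 24 h 6 of the 16 matrix genes were higher and 1 lower, against 10.6% and 9.48% of all genes. DCA+FGF2 explants against control had 7 higher and 3 lower at 24 h, where 20.8% of all genes were higher and 21.4% lower. At 48 h they had 3 higher and 6 lower, against 27.1% and 27.4%. In control medium 12 of the 16 were higher and 0 lower at 48 h than at 24 h, against 9.69% and 7.30%. Among 7 other small leucine-rich proteoglycans tested, FGF2 raised 2 and lowered 1 at 24 h (median 0.15). At 48 h 3 of the 7 fell with FGF2 and 0 rose: KERA (-3.23 ± 0.21, limma adjusted p = 4.7e-11), PRELP (-0.98 ± 0.22, 0.0008) and PODN (-0.87 ± 0.20, 0.00077). Of these 7, DCA+FGF2 explants had 1 higher and 2 lower than FGF2 explants at 48 h, against 25.4% and 27.4% of all genes. The higher gene was KERA (1.88 ± 0.21, limma adjusted p = 1.9e-07), and the lowest log2 fold change among the 7 was -3.14. For PRELP and PODN the differences were -0.12 and 0.29 (limma adjusted p = 0.69 and 0.23).

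Some genes of the fixed lists lie beside the markers on the chromosome in the RefSeq order, and not all of them shared the markers' course. ECM2, of the same row of genes as OGN, was lower with DCA at 48 h (-1.41 ± 0.15, limma adjusted p = 8e-07) and lower with DCA+FGF2 than with FGF2 (-0.99, 1.5e-05). With FGF2 alone at 48 h ECM2 differed by 0.10 (limma adjusted p = 0.63). OMD did not pass the filter on low values, and BGN had no row under that symbol. FOXF2, a forkhead gene beside FOXC1, fell by 2.75 with FGF2 at 48 h (limma adjusted p = 1.2e-07) and was 0.95 higher with DCA+FGF2 than with FGF2 (0.013). FOXF1, which lies near FOXC2, and EPYC, which lies near LUM, had differences of -1.51 ± 0.90 and 0.11 ± 1.06 with FGF2 at 48 h (limma adjusted p = 0.16 and 0.94). Both SEs were wide, so whether FOXF1 and EPYC shared the markers' course could not be told. KIT and KDR, receptor genes beside PDGFRA, fell by 1.19 (limma adjusted p = 6.5e-06) and 1.77 (7.5e-07) with FGF2 at 48 h. CSF1R, the macrophage receptor gene beside PDGFRB, fell by 1.58 with FGF2 at 48 h (limma adjusted p = 1.2e-07). CSF1R was also 1.69 lower with DCA+FGF2 than with FGF2 (-1.69, limma adjusted p = 6e-08), whereas PDGFRB was higher.

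The ligands of the PDGF receptors were lower too. All 4 tested (PDGFA, PDGFB, PDGFC and PDGFD) fell with FGF2 at both times, with a median log2 fold change of -1.08 at 24 h and -1.91 at 48 h. Of all genes, 14.3% were called lower at 24 h and 27.7% at 48 h. At 48 h PDGFB, the ligand that recruits pericytes, fell by 2.30 (limma adjusted p = 2.3e-09), PDGFC by 2.21 (1.1e-08), PDGFA by 1.62 (0.00014) and PDGFD by 1.28 (1.8e-08). Of the 4, DCA+FGF2 explants had PDGFA (2.13, limma adjusted p = 6.1e-06) and PDGFD (0.41, 0.0092) higher than FGF2 explants at 48 h. In that comparison 25.4% of all genes were called higher. PDGFB was at 0.41 (0.084) and PDGFC at -0.25 (0.33).

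Markers of other cells that an explant could hold moved beside the mesenchyme markers, and their part in these results was not tested. Of all genes tested, FGF2 lowered 14.3% at 24 h and 27.7% at 48 h. Of 9 endothelial genes tested, FGF2 lowered 6 at 24 h and 9 at 48 h, with PECAM1, an adhesion protein of vessels, at -2.20 (limma adjusted p = 3.3e-09) and ERG, an endothelial transcription factor, at -2.003 (1.4e-10) at 48 h. DCA+FGF2 explants had 3 of the 9 higher and 1 lower than FGF2 explants at 48 h. Of all genes, 25.4% were higher there and 27.4% lower. The summed level of the endothelial genes at 48 h was 8637 to 9936 normalized counts in DCA+FGF2 explants, 7896 to 8830 in FGF2 explants, 13880 to 29420 in DCA explants and 31658 to 47838 in control explants. Of 12 genes of blood and macrophages, FGF2 lowered 8 at 24 h and 12 at 48 h, with TAL1, a blood transcription factor, at -1.45 (limma adjusted p = 1e-07) at 48 h. Their sum at 48 h was 18196 to 29053 in DCA+FGF2, 15396 to 22297 in FGF2, 37308 to 48042 in DCA and 56445 to 76560 in control explants. Neither sum was separate between DCA+FGF2 and FGF2 explants at 48 h. That of the 9 markers was, at 8042 to 10413 in DCA+FGF2 and 3316 to 3890 in FGF2 explants. This was not particular to the markers: skeletal muscle genes summed to 1069 to 1309 in DCA+FGF2 and 454 to 546 in FGF2 explants. The sums of lens, PDGF ligand, fibroblast matrix, other mesenchyme transcription factor and pericyte genes were also separate and higher. Those of cartilage, pigment epithelium and retinal progenitor genes were separate and lower.

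FGF2 lowered 14.3% of all genes and raised 15.5% at 24 h, and lowered 27.7% and raised 26.9% at 48 h. Of 9 pericyte and smooth muscle genes, FGF2 lowered 4 and raised 2 at 24 h, and lowered 7 and raised 0 at 48 h. Their sum at 48 h was 30518 to 37756 in DCA+FGF2, 7453 to 8488 in FGF2, 45891 to 69365 in DCA and 23820 to 24997 in control explants. By gene, DCA explants had 4 of the 9 higher and 3 lower than control at 48 h (median -0.64). Of all genes, 16.9% were higher there and 17.1% lower. DCA+FGF2 explants had 2 higher and 5 lower than control (median -0.57), against 27.1% and 27.4% of all genes. In both comparisons the sum and the median thus differed in direction. ACTA2, smooth muscle actin, was 1.57 higher with DCA+FGF2 than with FGF2 at 48 h (limma adjusted p = 4.9e-08). Of 12 pigment epithelium genes, FGF2 lowered 3 and raised 2 at 24 h and lowered 12 at 48 h, and of 9 retinal progenitor genes it raised 8 at 24 h and 9 at 48 h. OTX2, a transcription factor of pigment epithelium, was at -1.17 (limma adjusted p = 6.6e-11) and SIX6, one of retinal progenitors, at 2.89 (1.9e-13) with FGF2 at 48 h. At 48 h the progenitor sum was 63153 to 72834 in DCA+FGF2, 106575 to 111242 in FGF2, 22053 to 25924 in DCA and 18974 to 22769 in control explants. Of 8 skeletal muscle genes FGF2 lowered 8 at 48 h, with MYF5, a myogenic factor, at -4.58 (limma adjusted p = 9.1e-09).

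At 24 h FGF2 raised 15.5% of all genes and lowered 14.3%, and at 48 h 26.9% and 27.7%. Of 6 cartilage genes, FGF2 raised 4 and lowered 1 at 24 h, and raised 3 and lowered 0 at 48 h. COL2A1, the main collagen of cartilage, was at 2.77 ± 0.11 at 48 h (limma adjusted p = 8.9e-14). The cartilage sum at 48 h was 78877 to 100379 in DCA+FGF2, 229724 to 236004 in FGF2, 38567 to 52860 in DCA and 66740 to 67930 in control explants. Whether these RNAs came from cartilage cells was not tested. Of 7 genes of neural crest, glia and melanocytes FGF2 raised 4 and lowered 1 at 24 h, and lowered 4 and raised 2 at 48 h. Of 7 genes of lens and surface ectoderm FGF2 lowered 4 and raised 1 at 48 h. No listed gene of these other cells was at 0 in all 3 libraries of a group.

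**Figure D5:**
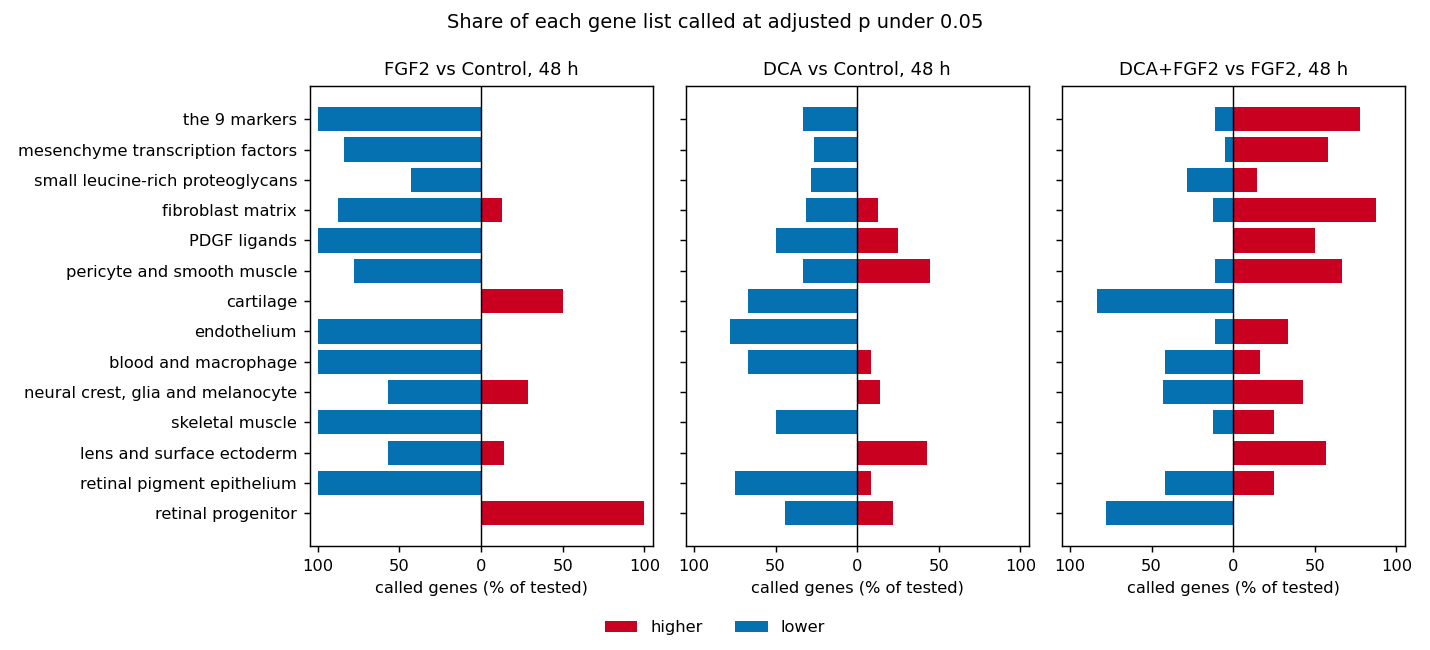
Share of the tested genes of each fixed list called higher (right of 0) or lower (left of 0) at an adjusted p under 0.05, in percent, for FGF2 against control, DCA against control and DCA+FGF2 against FGF2 explants at 48 h. With FGF2 all 9 markers are lower and with DCA+FGF2 against FGF2 7 of the 9 are higher, while the 9 retinal progenitor genes are all higher with FGF2. Over all genes tested, 27.7% are lower and 26.9% higher with FGF2, and 25.4% are higher with DCA+FGF2 against FGF2.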

How the data were processed

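The study sequenced 24 libraries, and per the labels the input was 100 ng RNA, the kit selected poly(A) RNA and kept strand, and PCR ran for 13 cycles. Each deposited value is a signal, the reads of a gene in a library after the authors scaled that library (a normalized count). The submitters' processing notes name DESeq2 1.34.0, StringTie 2.1.4, STAR 2.7.5b, Trim Galore 0.6.4 and the build GRCg6a. How strand was treated in counting is not stated there, so reads of overlapping or antisense genes could not be told apart. Dividing each column by its smallest step gave whole reads for 100% of values within 0.001 of a read; with StringTie among the tools those reads may be estimates. No coordinates or sequences were used.

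Normalized counts were set to log2 with a pseudocount of 1, genes with a mean of at least 10 were kept (15001, of which 11469 had a symbol), and 1 limma-trend model (limma 3.58.1 in R 4.3.3) with a mean for each of the 8 groups (residual df of 16) gave 17 comparisons, several of which share their FGF2 or control libraries. Fold changes on this scale understate those of low genes. Adjustment was by Benjamini-Hochberg within a comparison. The fit was first tested on simulated data with known fold changes. The alternatives were pseudocounts of 0.5 and 5, no filter, a mean of at least 50, TMM scaling, scaling by library total, edgeR 4.0.16 and DESeq2 1.42.0 on the recovered reads, a replicate block, a fit of only the groups compared, the fit without both of the deepest libraries, and each library left out. Replicates correlated at 0.959 to 0.980. Samples with the same replicate number did not deviate together.

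The 9 genes and the other 13 lists were chosen with earlier results of these data known. By a fixed rule, the named genes are the 9 markers, up to 3 genes per list with the smallest adjusted p in FGF2 against control at 48 h, and the genes most alike in pattern. PDGFA and the neighbours ECM2, EPYC, FOXF1, FOXF2 and KDR fall outside it and were named after their values were seen. Some genes that the rule names are not reported here. Listed genes without a row or below the filter were left out of counts.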

Additional observations from a re-analysis of the deposited data

Results flagged for a closer look

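The following differences between effects passed the interaction test of the limma fit (adjusted p under 0.05 over all genes), and their values are on the log2 scale. The DCA effect beside FGF2 minus the DCA effect without it was 1.49 for LUM at 24 h. At 48 h it was 2.79 for PRRX1, 6.19 for TCF21, 2.82 for LUM, 1.65 for DCN, 1.36 for FOXC1, 1.38 for FOXC2, 0.75 for PDGFRA and 1.12 for PDGFRB. The FGF2 effect at 48 h minus that at 24 h was -1.68 for PRRX1, -2.93 for TCF21, -1.89 for LUM, -2.4 for DCN, -1.39 for OGN, -1.31 for FOXC1, -1.7 for FOXC2, -1.74 for PDGFRA and -1.0 for PDGFRB. The 2 differences that did not hold in every fit without 1 library were LUM at 24 h and OGN between the times.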

How the results depend on the processing

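Of 153 values (9 genes in 17 comparisons) under 11 alternatives, 42 of 1683 changed side of the threshold, 22 losing and 20 gaining a call, and 0 reversed. Among 97 called values, 79 kept their call in all 24 fits without 1 library. Counts of called genes that moved by over 1.5 times were those higher with DCA at 24 h, which were 0 and became 2 in the fit of only the groups compared, and those with a positive interaction at 24 h; other counts that moved did so by 1 gene. The interaction count was 1 and became 0 without a filter and without both of the deepest libraries, 2 in the fit of only the groups compared and 3 with DESeq2. Over the 8 group means, 10 of the 27 nearest genes were again nearest. The cause of these moves was not tested. On the recovered reads edgeR called 8203 genes in FGF2 against control at 48 h, where limma called 8187.

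Leaving out 1 library, the number of the 9 genes called was 0 to 1 for those higher with DCA at 24 h, 2 to 5 for those lower with DCA at 48 h, 0 to 1 for those lower with DCA+FGF2 than with FGF2 at 24 h, 0 to 1 for those higher with DCA+FGF2 than with DCA at 24 h, and 0 to 3 for a positive interaction at 24 h. It was 0 to 2 for those higher and 0 to 1 for those lower at 48 h than at 24 h in control explants, and 2 to 5 for those lower at 48 h in DCA explants. Same-numbered libraries showed no strong shared deviation: the correlation of deviations between them was -0.092 to 0.097 over 84 pairs, and between different-numbered ones -0.093 to 0.102 over 168. These values cannot show whether same-numbered samples were prepared together. With the replicate number as a block, FGF2 at 48 h still called 9 of 9 genes lower, and no count of called genes moved by over 1.5 times. The block ended the calls of PRRX1 in DCA+FGF2 against control at 48 h (adjusted p = 0.0572), OGN between the times with DCA+FGF2 (0.0545) and OGN in the FGF2 effect between the times (0.0505), and it called FOXC1 at 24 h against FGF2 (0.0343) and against DCA (0.0386). Library depth limits TCF21, which rests on 12 reads in FGF2 explants at 24 h and 0 at 48 h.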
